A study of Mus musculus with 4 samples.

Results

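The genes described here encode the proximal T cell receptor (TCR) signaling machinery: the receptor chains and co-receptor, the first kinases and adaptors, the enzymes they activate, and the proteins that dampen them. They form a list of 37 genes given by name, the rule itself using no measured value, and each was read from the brightest probe set annotated with that symbol alone. Of the 37 genes, 36 were measured among 18193 genes in all, and *Lck*, which encodes the kinase that starts the cascade, was not analysed here. The samples were follicular helper CD4+ T (TFH) cells sorted from mouse spleen at day 8 after infection with the Armstrong strain of LCMV, a virus that causes an acute infection in mice. There were 2 arrays of Rictor-null TFH cells and 2 arrays of WT TFH cells, and each array held RNA pooled from several mice. In the Rictor-null mice a floxed *Rictor* gene was deleted by a Cre recombinase driven by *Cd4* regulatory sequences, which act in all T cells that pass through a CD4-expressing stage and not in TFH cells alone. The study's WT mice were littermates with the same floxed alleles and no Cre, so both groups carried the floxed gene. It infected young adult mice of both sexes.

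Rictor is the subunit that defines mTOR complex 2 (mTORC2), a kinase complex that phosphorylates AKT and lies downstream of the TCR and of the co-stimulatory receptor ICOS. When the TCR binds peptide on MHC, Src family kinases phosphorylate the tails of the CD3 and zeta chains, ZAP-70 docks there and phosphorylates the adaptors LAT and SLP-76, and the complex on these adaptors switches on phospholipase C, Ras and NF-kB. TFH cells depend on this signal during their repeated contacts with B cells. The comparison asks how the transcripts of this machinery differed in TFH cells that had formed without mTORC2.

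The values are intensities of 45037 probe sets on single-colour Affymetrix arrays, with medians of 20.0 to 20.4 on the 4 arrays. The level of one probe set cannot be set against that of another as an amount of transcript, and bright probe sets weigh most in the sums below. Fold changes below are log2 differences, Rictor-null minus WT, with their standard error (SE), on the log2(intensity + 16) scale unless a percentage of WT intensity is given. On that scale the arrays correlated at 0.998 within each group and at 0.993 to 0.994 between groups across probe sets. The brightest of 5 *Rictor* probe sets gave 267 and 279 in Rictor-null arrays and 334 and 303 in WT arrays (limma adjusted p = 0.0366 over genes and 0.0868 over all probe sets). The other 4 were at log2 differences of -0.03, 0.06, 0.11 and -0.0014 and did not pass. Which exons they cover was not examined, so that they do not check the deletion. The study checked it by other means. It reported no detectable *Rictor* mRNA in sorted Rictor-null TFH cells, and no induction of mTORC2 activity in stimulated Rictor-null CD4+ T cells. All 10 T cell and TFH markers lay above the median of all probe sets. Of these 10, 7 were lower and 1 higher, and their summed intensity was 12712 to 13018 in Rictor-null and 14403 to 14860.3 in WT arrays. The brightest of them were *Icos*, which did not pass, and *Cd2*, which was higher. The largest falls were in *Bcl6*, *Il21* and *Cxcr5*, at -0.94, -0.90 and -0.70. The study reported a lower frequency of Bcl6-high, c-Maf-high TFH cells in Rictor-null mice. The marker list shares *Cd3e*, *Cd4*, *Cd5* and *Cd2* with the genes described here. Some markers of other cell types that a sort could hold differed between the genotypes, while others did not pass. Of all genes 7.19% were lower and 12.5% higher. The summed intensity of 14 myeloid markers was 1994 to 2059 in Rictor-null and 1294 to 1322 in WT arrays, and 7 of the 14 were higher and 0 lower. *Ccr2* and *Cst3* made up most of this sum. The summed intensity of 7 NK cell markers was 790 to 913 in Rictor-null and 442 to 446 in WT arrays, with 4 higher and 0 lower. *Klrk1* and *Eomes* made up most of it, while *Ncr1*, which encodes a receptor that defines NK cells, lay below the median intensity of all probe sets in both groups. The summed intensity of 7 plasma cell markers was 1598 to 1664 in Rictor-null and 1389 to 1438 in WT arrays, with 3 higher and 1 lower. That of 9 B cell markers was 498 to 506 in Rictor-null and 793 to 798 in WT arrays, with 2 higher (*Cd79b* and *Pax5*, at 0.40 and 0.22) and 1 lower (*Cd22*, at -0.82), and *Cd22* made up most of the sum. Of these 9 markers, 7 were dimmer than the median probe set. The 2 CD8 genes summed to 148 to 163 in Rictor-null and 106 to 115 in WT arrays, while *Cd8a* alone was at 23.7 and 25.2 in Rictor-null and 24.7 and 24.0 in WT arrays. No marker was at 0, and the part of other cells in the differences below was not tested.

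More of the proximal TCR genes fell than rose. Of the 36 measured genes, 14 were lower and 5 higher in Rictor-null than in WT TFH cells (limma, threshold of 0.05 on the adjusted p), while 17 missed it. Of all genes, 7.19% were lower and 12.5% higher, or 19.7% in either direction. All 36 genes lay above the median intensity of all probe sets, and of the 10695 genes above it 11.4% were lower and 20.1% higher. That median was 20.2, while the 36 genes averaged from 60.5 to 6442, so that these shares are not closely matched for intensity. The 2 groups of arrays did not overlap for 29 of the 36 genes, with Rictor-null lower in 21 and higher in 8. Across all genes 55.5% did not overlap, 24.9% with Rictor-null lower and 30.6% with Rictor-null higher. The median log2 fold change was -0.09 over the 36 genes and 0.0068 over all genes. The changes were modest, with Rictor-null intensity between 61.4% and 151% of WT. Since the cells were measured in bulk, fewer cells that express a gene and less RNA per cell cannot be told apart. Leaving out a WT array cost more calls than leaving out a Rictor-null array. With 1 WT array left, the spread within groups comes from the Rictor-null pair alone, so that a lost call need not reflect the WT values. Without WT replicate 1 the counts were 9 lower and 0 higher, and without WT replicate 2 they were 10 lower and 1 higher, while of all genes 457 were lower and 1005 higher without the first and 494 and 930 without the second. *Matk*, *Malt1*, *Cd5*, *Cd6*, *Fyn* and *Fyb*, all lower, kept their calls with any array left out and in every processing alternative other than the methods' t-test. *Cd5* and *Cd6* have 1 probe set each, so that averaging probe sets could not change their estimates. The methods' t-test was one-tailed, with the tail taken on the side of each observed difference. It left 0 of the 36 genes lower and 0 higher after Benjamini-Hochberg adjustment. Unadjusted it gave 15 lower and 6 higher, beside 2231 lower and 3143 higher of all genes.

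**Figure D1:**
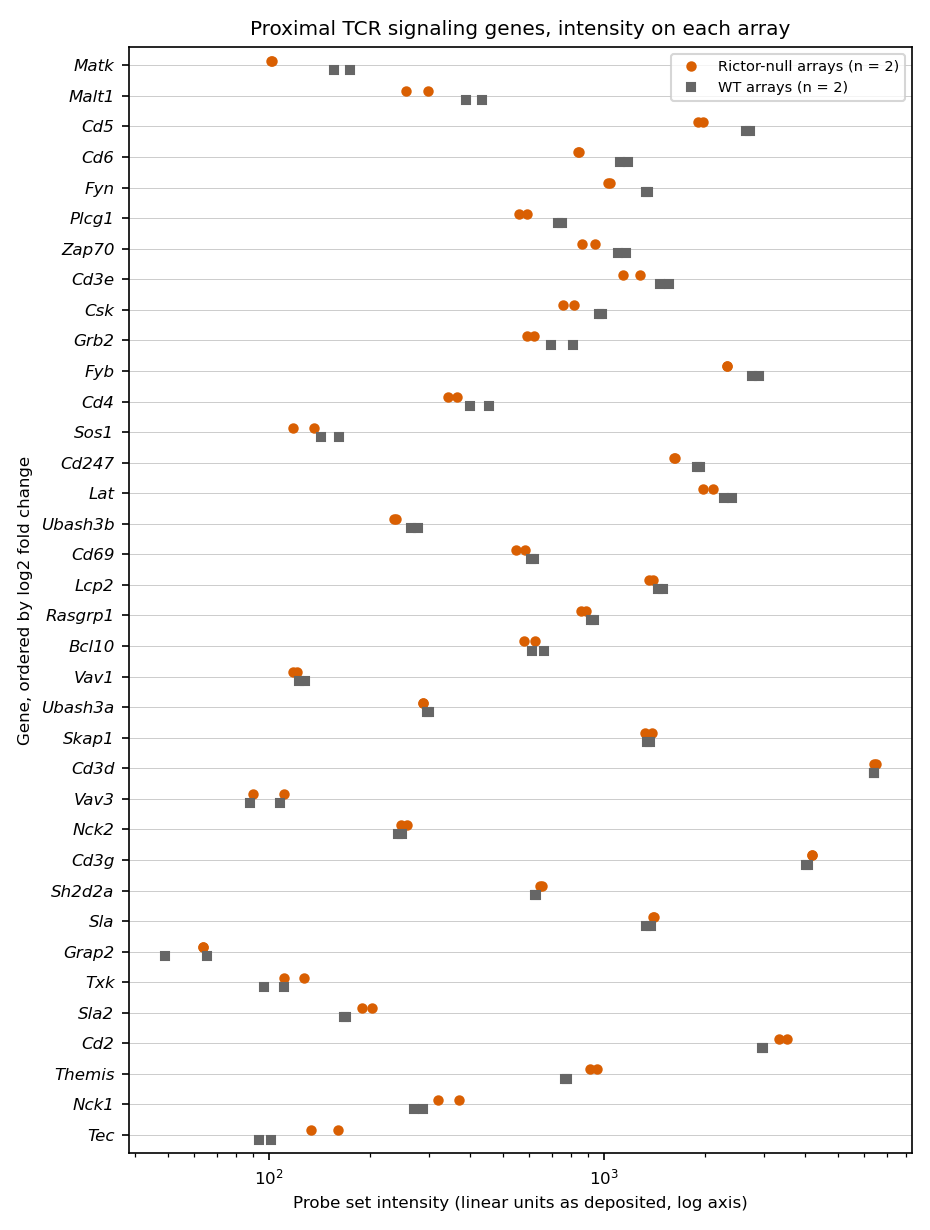
Intensity on each array (x axis, linear units as deposited, log axis) of the 36 measured proximal TCR genes, ordered from the largest fall to the largest rise. Orange circles are the 2 Rictor-null arrays and grey squares the 2 WT arrays of each gene. The values of the 2 groups do not overlap for 29 genes, with *Matk* at the top, at 61.4% of WT, and *Tec* at the bottom, at 151% of WT.

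Among the receptor chains *Cd3e* and *Cd247* were lower, while *Cd3d* and *Cd3g* did not pass. Of the 5 genes for receptor chains and co-receptor, 3 were lower, none was higher and 2 did not pass. The shares over all genes above the median intensity were 11.4% lower and 20.1% higher. *Cd3e*, which encodes the CD3 epsilon chain that pairs with both CD3 delta and CD3 gamma, was at intensities of 1143 and 1285 in Rictor-null arrays and 1562 and 1468 in WT arrays. Both Rictor-null values lay below both WT values, at 80.1% of the WT mean, with a log2 difference of -0.32 (SE 0.06, limma adjusted p = 0.00162). *Cd247*, encoding the zeta chain that carries most of the signaling motifs of the receptor, was at 1635 and 1621 in Rictor-null and 1904 and 1933 in WT arrays, a log2 difference of -0.23 (SE 0.04, limma adjusted p = 0.00141). *Cd4*, the co-receptor gene that binds MHC class II and brings Lck to the receptor, was at 363 and 343 in Rictor-null and 456 and 399 in WT arrays, a log2 difference of -0.26 (SE 0.07, limma adjusted p = 0.0145). The groups did not overlap for either gene. In contrast, *Cd3d*, encoding CD3 delta, was at 6517 and 6409 in Rictor-null and 6410.4 and 6429.6 in WT arrays, with overlapping groups. Its log2 fold change was 0.0096, with a 95% interval from -0.07 to 0.09 (adjusted p = 0.907 from limma). *Cd3g*, encoding CD3 gamma, was at 4171 and 4189 in Rictor-null and 4028 and 4077 in WT arrays, a log2 difference of 0.04 with an interval from -0.04 to 0.13 (adjusted p = 0.495 from limma). These intervals cover single genes without adjustment, and the difference between the change of *Cd3e* and those of *Cd3d* and *Cd3g* was not tested. With an array left out, *Cd3e* did not pass without WT replicate 1 or 2 (adjusted p = 0.0994 and 0.053), *Cd247* did not pass without WT replicate 2 (adjusted p = 0.0579), and *Cd4* did not pass without Rictor-null replicate 2 or WT replicate 1 (adjusted p = 0.0699 and 0.214 from limma). With all probe sets of a gene averaged, *Cd247* and *Cd4* did not pass either (adjusted p = 0.168 and 0.0997), nor did *Cd4* when the variance trend was left out (adjusted p = 0.051 from limma).

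*Cd3g*, *Cd3d* and *Cd3e* are consecutive protein-coding genes on mouse chromosome 9, so that this cluster holds both a gene that fell and genes that did not pass. Their promoters are shown for that reason, as the 250 bases before the RefSeq transcription start on GRCm38.p6, read 5′ to 3′ on the strand of the gene. Capitals mark GGAAGT, a core letter pattern of Ets factor sites, and CAGGTG, an E-box, each on either strand, so that ACTTCC in capitals is the Ets pattern on the other strand, as CACCTG is the E-box.
Cd3e, chr9:45009612-45009861, minus strand: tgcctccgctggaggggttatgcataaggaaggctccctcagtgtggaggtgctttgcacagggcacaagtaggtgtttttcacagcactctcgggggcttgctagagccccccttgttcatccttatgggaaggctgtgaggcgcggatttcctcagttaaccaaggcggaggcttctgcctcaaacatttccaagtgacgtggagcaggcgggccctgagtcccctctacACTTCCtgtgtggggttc
Cd3d, chr9:44981536-44981785, plus strand: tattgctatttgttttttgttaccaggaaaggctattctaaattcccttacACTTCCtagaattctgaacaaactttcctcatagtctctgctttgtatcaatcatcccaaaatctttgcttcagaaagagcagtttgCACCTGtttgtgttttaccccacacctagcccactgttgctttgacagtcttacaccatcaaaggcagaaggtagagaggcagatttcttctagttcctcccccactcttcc
Cd3g, chr9:44980432-44980681, minus strand: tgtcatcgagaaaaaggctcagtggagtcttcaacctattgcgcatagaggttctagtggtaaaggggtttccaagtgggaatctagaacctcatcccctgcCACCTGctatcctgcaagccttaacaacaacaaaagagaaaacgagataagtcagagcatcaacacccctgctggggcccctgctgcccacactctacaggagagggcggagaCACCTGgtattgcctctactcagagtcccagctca
The *Cd3e* window held 1 GGAAGT match, which began 18 bases before the start, and 0 CAGGTG matches. The *Cd3d* window held 1 of each, and the *Cd3g* window 2 CAGGTG and 0 GGAAGT matches. Of 32817 promoter windows of this length, 19.7% held the Ets pattern and 17.2% the E-box. The Runx pattern TGTGGT was also searched on both strands, as was the TATA box as TATAAA. Both had 0 matches in the 3 windows, and of all windows 14% held the Runx pattern and 12.4% the TATA box. The marked letters do not overlap, and a match describes the sequence only.

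Among the kinases, *Fyn* and *Zap70* were lower and *Tec* was higher, while *Txk* did not pass. *Fyn*, the gene of a Src family kinase that acts beside Lck, was at 1032 and 1045 in Rictor-null and 1357 and 1338 in WT arrays. At 77.1% of the WT mean, its log2 difference was -0.37 (SE 0.04, limma adjusted p = 7.9e-05). *Zap70*, encoding the kinase that docks on phosphorylated CD3 and zeta chains, was at 861 and 944 in Rictor-null and 1169 and 1105 in WT arrays, a log2 difference of -0.33 (SE 0.05, limma adjusted p = 0.000883). In both genes every Rictor-null array lay below every WT array. *Tec*, the founding gene of the Tec kinase family that phosphorylates phospholipase C gamma, went the other way, with 161 and 133 in Rictor-null and 93.3 and 101 in WT arrays. It had the largest rise of the 36 genes, at 151% of the WT mean and a log2 difference of 0.52 (SE 0.09, limma adjusted p = 0.00104). *Txk*, the neighbouring gene on chromosome 5 and another Tec family kinase, was at 111 and 127 in Rictor-null and 96.5 and 111 in WT arrays, with a log2 difference of 0.17 and an interval from -0.02 to 0.36 (adjusted p = 0.213 from limma). Tec is also made by myeloid and B cells. Of the 14 myeloid markers 7 were higher and 0 lower in Rictor-null arrays, and of the 9 B cell markers 2 were higher and 1 lower. The other 7 myeloid markers did not pass, among them *Csf1r*, *Adgre1*, *Cd14*, *Cd68*, *Spi1* and *Cybb*. Of all genes above the median intensity 20.1% were higher and 11.4% lower. The part of such cells in the rise of *Tec* was not tested. Without WT replicate 1, *Zap70* and *Tec* did not pass (adjusted p = 0.071 and 0.0709 from limma).

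The *Tec* promoter is shown as that of the gene that rose most. It holds 1 GGAAGT match, in capitals, which began 245 bases before the start, and 0 matches to the 3 other patterns.
Tec, chr5:72868449-72868698, minus strand: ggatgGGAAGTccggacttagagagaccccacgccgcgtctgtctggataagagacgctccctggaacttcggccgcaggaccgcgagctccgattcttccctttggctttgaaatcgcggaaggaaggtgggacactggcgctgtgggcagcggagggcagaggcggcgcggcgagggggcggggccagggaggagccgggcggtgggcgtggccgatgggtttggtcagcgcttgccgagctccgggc

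**Figure D2:**
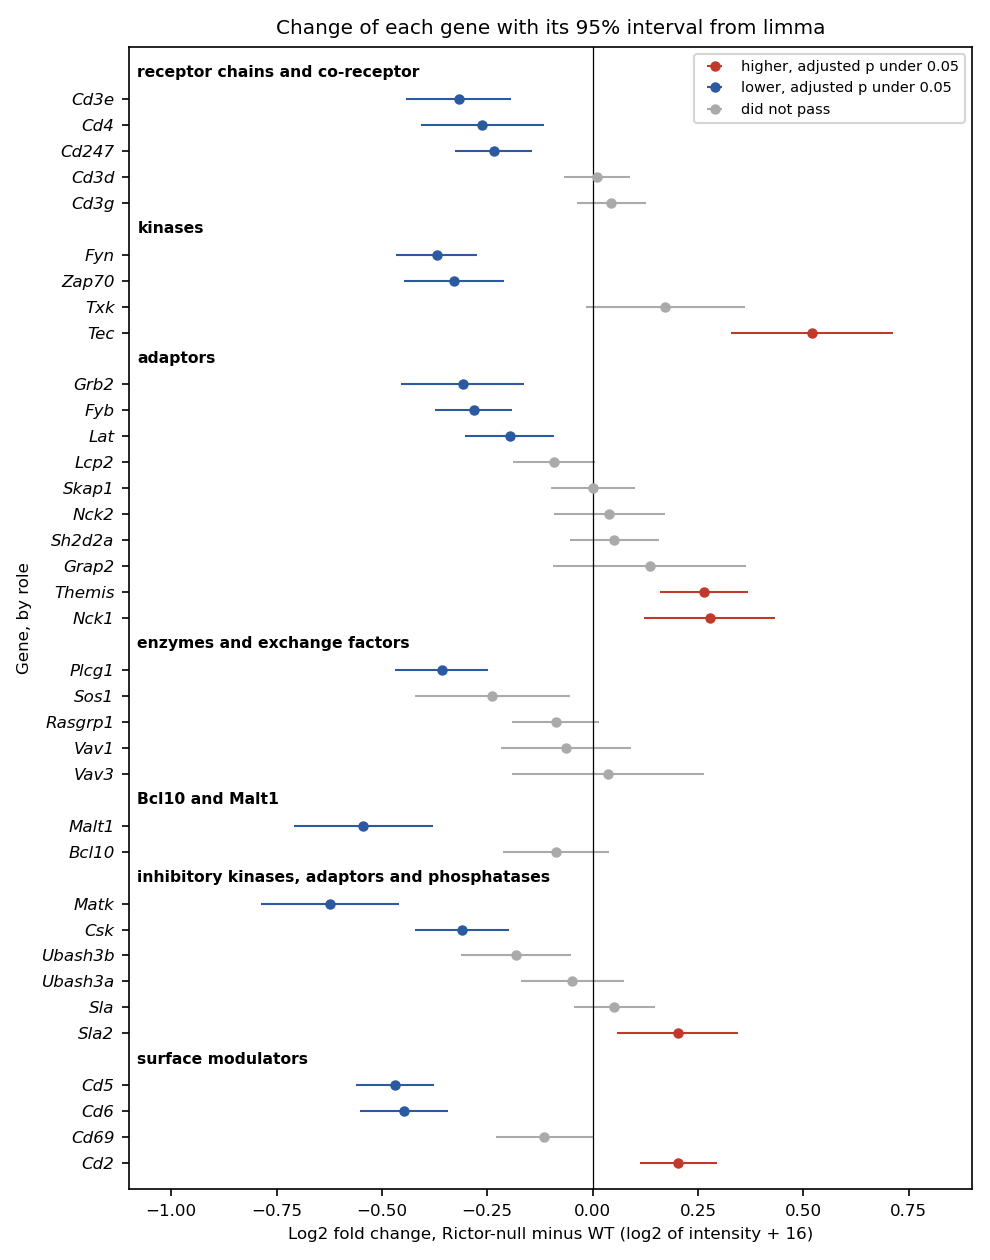
Log2 fold change, Rictor-null minus WT, of each of the 36 genes (x axis, log2 of intensity + 16), grouped by role. Points are estimates from limma over 2 arrays a group and bars their unadjusted 95% intervals. Red genes were higher, blue genes lower and grey genes did not pass. The receptor, kinase and adaptor groups each hold genes that passed and genes that did not, and *Cd5* and *Cd6* lie side by side at -0.47 and -0.45.

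The 10 adaptor genes split, with 3 lower, 2 higher and 5 that did not pass, and their median log2 fold change was 0.02. For all genes above the median intensity the shares were 11.4% lower and 20.1% higher. *Lat*, encoding the membrane scaffold on which the signaling complex forms, was at 2126 and 1976 in Rictor-null and 2420.1 and 2284 in WT arrays, a log2 difference of -0.20 (SE 0.05, limma adjusted p = 0.0118). *Grb2*, which links LAT to the Ras activator SOS, averaged 604 ± 22.4 in Rictor-null and 754 ± 82.7 in WT TFH cells (SD, n = 2 each), a log2 difference of -0.31 (limma adjusted p = 0.00565). *Fyb*, encoding ADAP, which couples the TCR to integrin activation, averaged 2333 ± 6.51 in Rictor-null and 2843 ± 100.2 in WT TFH cells (SD, n = 2 each), a log2 difference of -0.28 (limma adjusted p = 0.000403). The groups did not overlap for these 3 genes. The higher adaptor genes were *Themis*, whose product binds GRB2 and sets the response of developing thymocytes, and *Nck1*, which links the receptor to actin. *Themis* averaged 932 ± 28.6 in Rictor-null and 773 ± 6.95 in WT TFH cells, and *Nck1* 344 ± 35.7 in Rictor-null and 281 ± 12.8 in WT TFH cells (SD, n = 2 each). On the log2 scale they differed by 0.26 and 0.28 (adjusted p = 0.00164 and 0.0151 from limma). *Nck2*, the close relative of *Nck1*, was at a log2 difference of 0.04 with an interval from -0.09 to 0.17. *Lcp2*, which encodes SLP-76, was at -0.09, *Skap1*, whose product binds ADAP, at 0.0015, *Sh2d2a*, encoding the Lck-binding adaptor TSAd, at 0.05 and *Grap2*, encoding the GADS adaptor between LAT and SLP-76, at 0.14, and none of the 4 passed. The sign of *Skap1* turned under median centring and quantile normalization. Without WT replicate 1 *Grb2* did not pass (adjusted p = 0.13), *Themis* did not pass without either WT array (adjusted p = 0.0528 and 0.0636), and *Lat* and *Nck1* each did not pass without Rictor-null replicate 2 or either WT array (adjusted p = 0.0711 to 0.191 and 0.118 to 0.214 from limma). *Lat* and *Nck1* also did not pass when the variance trend was left out (adjusted p = 0.0672 and 0.0515), nor did *Nck1* with all its probe sets averaged (adjusted p = 0.329 from limma).

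Of the enzymes downstream of the adaptors, *Plcg1* was lower and the 4 exchange factor genes did not pass. *Plcg1* encodes phospholipase C gamma 1, which makes the second messengers for calcium and diacylglycerol signals. Its intensities were 589 and 559 in Rictor-null and 732 and 748 in WT arrays, 77.5% of the WT mean, with a log2 difference of -0.36 (SE 0.05, limma adjusted p = 0.000283). With its other probe sets averaged in, both of which lay below the median intensity, *Plcg1* was at -0.12 and did not pass (adjusted p = 0.2002 from limma). *Sos1*, a Ras exchange factor gene, averaged 127 ± 13.3 in Rictor-null and 153 ± 13.4 in WT TFH cells (SD, n = 2 each), a log2 difference of -0.24 (adjusted p = 0.0687 from limma), and passed as lower under median centring, quantile normalization, without dim probe sets or without Rictor-null replicate 1 (adjusted p = 0.0276 to 0.0494). *Rasgrp1*, the diacylglycerol-activated Ras exchange factor gene, was at -0.09, and the Rac exchange factor genes *Vav1* and *Vav3* were at -0.06 and 0.04. Their 95% intervals ran from -0.19 to 0.01, from -0.22 to 0.09 and from -0.19 to 0.26.

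Of the pair that connects the TCR to NF-kB, *Malt1* was lower and *Bcl10* did not pass. *Malt1*, encoding a paracaspase that is both scaffold and protease, was at 256 and 299 in Rictor-null and 434 and 389 in WT arrays. The Rictor-null mean was 67.4% of the WT mean, a log2 difference of -0.54 (SE 0.08, limma adjusted p = 0.000247), and the groups lay well apart. *Bcl10*, which encodes the adaptor that binds MALT1, was at 577 and 623 in Rictor-null and 613 and 664 in WT arrays, which overlap. Its log2 fold change was -0.09 with an interval from -0.21 to 0.04 (adjusted p = 0.365 from limma).

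Of the 6 measured genes of the inhibitory arm 2 were lower, 1 was higher and 3 did not pass. Among all genes above the median intensity 11.4% were lower and 20.1% higher. *Matk* had the largest fall of the 36 genes. It encodes CHK, a relative of the kinase CSK, and both phosphorylate the inhibitory tyrosine of Src family kinases. *Matk* was at 102.4 and 101.6 in Rictor-null and 175 and 157 in WT arrays, 61.4% of the WT mean, with a log2 difference of -0.62 (SE 0.07, limma adjusted p = 8.38e-05). *Csk* was at 756 and 816 in Rictor-null and 966 and 989.6 in WT arrays, a log2 difference of -0.31 (SE 0.05, limma adjusted p = 0.000848). Both Rictor-null values lay below both WT values in each gene. *Sla2*, encoding SLAP-2, an adaptor that lowers surface TCR, averaged 197 ± 9.19 in Rictor-null and 169 ± 2.05 in WT TFH cells (SD, n = 2 each), a log2 difference of 0.20 (adjusted p = 0.0488 from limma). Its relative *Sla* was at 0.05 and did not pass, and turned to -0.05 with all its probe sets averaged. *Ubash3a* and *Ubash3b*, encoding the STS phosphatases that act on ZAP-70, were at -0.05 and -0.18 and did not pass (adjusted p = 0.655 and 0.0523 from limma). *Ubash3b* passed as lower under median centring, quantile normalization and without dim probe sets (adjusted p = 0.0331 to 0.0363). *Sla2* did not pass under median centring, quantile normalization, with the replicate number as a block, over all probe sets, or without Rictor-null replicate 1 or either WT array (adjusted p = 0.0514 to 0.252), and *Csk* did not pass without WT replicate 2 (adjusted p = 0.0617 from limma).

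Among the surface molecules that tune TCR signals, *Cd5* and *Cd6* were lower and *Cd2* was higher. *Cd5* and *Cd6* encode related scavenger receptor family proteins that gather signaling molecules at the T cell surface, and CD5 is known as a brake on TCR signals whose level follows their strength. *Cd5* was at 1907 and 1984 in Rictor-null and 2733 and 2666 in WT arrays, 72.1% of the WT mean, with a log2 difference of -0.47 (SE 0.04, limma adjusted p = 1.17e-05). *Cd6* was at 842 and 836 in Rictor-null and 1185 and 1116 in WT arrays, 72.9% of the WT mean, with a log2 difference of -0.45 (SE 0.05, limma adjusted p = 4.29e-05). Both are consecutive protein-coding genes on chromosome 19, and in both the groups were far apart compared with the spread within them. *Cd2*, encoding an adhesion and co-stimulatory receptor, averaged 3433 ± 143 in Rictor-null and 2979 ± 10.2 in WT TFH cells (SD, n = 2 each), a log2 difference of 0.20 (adjusted p = 0.00405 from limma). *Cd69*, an early activation marker induced by TCR signals, was at 583 and 547 in Rictor-null and 620.4 and 606 in WT arrays, a log2 difference of -0.11 (adjusted p = 0.167 from limma). *Cd2* did not pass without WT replicate 1 or 2 (adjusted p = 0.0879 and 0.084 from limma).

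Of the pair, *Cd5* has a promoter entry in the RefSeq table used here, and it is shown because *Cd5* had the smallest adjusted p of the 36 genes. It holds 1 GGAAGT match, which began 51 bases before the start, and 2 CAGGTG matches, at 174 and 69 bases before it, all in capitals.
Cd5, chr19:10738975-10739224, minus strand: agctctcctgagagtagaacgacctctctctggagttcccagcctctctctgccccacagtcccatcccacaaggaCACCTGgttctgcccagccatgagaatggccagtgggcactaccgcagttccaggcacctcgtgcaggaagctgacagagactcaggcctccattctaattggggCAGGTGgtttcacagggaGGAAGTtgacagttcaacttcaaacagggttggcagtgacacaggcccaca
The Runx pattern and the TATA box had 0 matches in the *Cd5* window.

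Most other probe sets of the genes that passed had the direction of the brightest one. The 36 genes were read by 81 probe sets, with 24 genes having more than 1. The 12 others had 1 each, and of these *Cd2*, *Cd3e*, *Cd5*, *Cd6*, *Csk*, *Lat* and *Tec* passed. Of the 45 probe sets that were not the brightest, 36 lay above the median intensity, and 18 of these belonged to 11 of the genes that passed. In 14 of the 18 the direction was that of the brightest probe set, and 8 of the 14 also passed with adjustment over all probe sets. The matching shares over the probe sets of all genes were not computed. Probe sets of a gene read the same RNA on the same arrays, so that their agreement adds no replicate. *Malt1* was at -0.61 and -0.54 in its other probe sets and *Matk* at -0.63. *Grb2* was at -0.45, *Fyn* at -0.31 and *Fyb* at -0.26. The 4 that went the other way were probe sets of *Cd247* at 0.29, *Zap70* at 0.01, *Nck1* at -0.15 and *Themis* at -0.16, and none of them passed. *Rasgrp1* and *Sla*, which did not pass in the brightest probe set, had a dimmer one that did, at -0.36 (adjusted p = 0.0156 from limma) and -0.29 (adjusted p = 0.0481 from limma). Which transcript forms the probe sets cover was not examined.

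**Figure D3:**
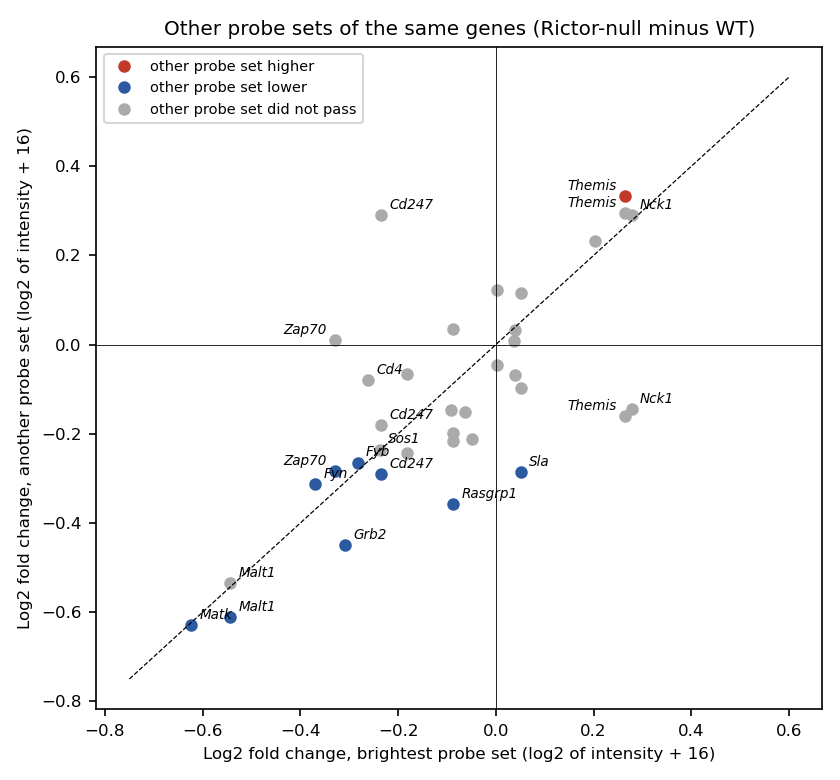
Log2 fold change, Rictor-null minus WT, of the brightest probe set of a gene (x axis) and of each of its other probe sets above the median intensity (y axis), both on the log2(intensity + 16) scale. Blue and red points are other probe sets that passed as lower or higher over all probe sets, grey points did not pass, and the dashed line marks equal changes. *Matk* and *Malt1* lie near the line at the lower left, and 1 probe set of *Cd247* lies at 0.29 although the brightest was at -0.23.

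Further genes of the pathway, from a list of 36 that holds co-stimulatory, scaffold, inhibitory and calcium entry genes, were read from the same fit. Of its 32 measured genes, 16 were lower, 2 higher and 14 did not pass, beside 7.19% lower and 12.5% higher of all genes. Only 1 of the 32 lay below the median intensity, and of all genes above it 11.4% were lower and 20.1% higher. The median log2 fold change was -0.19, and no test set the list against other genes. The 4 with the smallest p were *Dgkz*, *Ptpn11*, *Pag1* and *Trat1*. *Dgkz*, encoding a kinase that removes diacylglycerol, was at 2787 and 2688 in Rictor-null and 3737 and 3861 in WT arrays, a log2 difference of -0.47. *Ptpn11*, which encodes the phosphatase SHP2, was at 1325 and 1303 in Rictor-null and 1816 and 1892 in WT arrays, a log2 difference of -0.49. *Pag1*, encoding a membrane adaptor that recruits CSK, was at 351 and 325 in Rictor-null and 500.4 and 489 in WT arrays, a log2 difference of -0.53. In these 3 genes both Rictor-null values were below both WT values. The 2 higher genes were *Trat1*, which encodes a transmembrane adaptor of the TCR complex, at 342 and 376 in Rictor-null and 239.9 and 247 in WT arrays, and the docking protein gene *Gab3*, named after its values were seen, at 123 and 110.3 in Rictor-null and 79.7 and 69.6 in WT arrays. Their log2 fold changes were 0.53 and 0.55 (limma adjusted p = 7.54e-05 and 0.000609), and *Dgkz*, *Ptpn11* and *Pag1* had adjusted p = 9.12e-06, 1.11e-05 and 4.29e-05.

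Genes that TCR signals induce were examined as a list of 11 transcripts. Of these 6 were lower, 1 was higher and 4 did not pass, beside 7.19% lower and 12.5% higher of all genes. Only 1 of the 11 lay below the median intensity, and of all genes above it 11.4% were lower and 20.1% higher. The median log2 fold change of the list was -0.32. The lower genes named by the smallest p were *Egr1*, *Egr2* and *Nr4a1*, which encode early transcription factors, and *Dusp2*, which encodes a nuclear MAP kinase phosphatase. *Egr1* was at 832 and 799 in Rictor-null and 1331 and 1237 in WT arrays, and *Egr2* at 179.9 and 177 in Rictor-null and 272 and 265 in WT arrays. *Nr4a1* was at 250.5 and 256 in Rictor-null and 334 and 329 in WT arrays, and *Dusp2* at 637 and 684 in Rictor-null and 846 and 863 in WT arrays, and the groups overlapped in none of the 4 genes. The log2 fold changes of *Nr4a1* and *Dusp2* were -0.37 and -0.36, beside -0.64 and -0.55 for *Egr1* and *Egr2*, with limma adjusted p from 4.6e-06 for *Egr1* to 0.00056 for *Nr4a1*. The higher gene, *Il2ra*, which encodes the IL-2 receptor alpha chain and was named after its values were seen, was at 21.2 and 17.4 in Rictor-null and 12.03 and 11.05 in WT arrays, with a mean below the median intensity of all probe sets. It was left out by the filter on dim probe sets, and did not pass with all its probe sets averaged or without WT replicate 2.

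**Figure D4:**
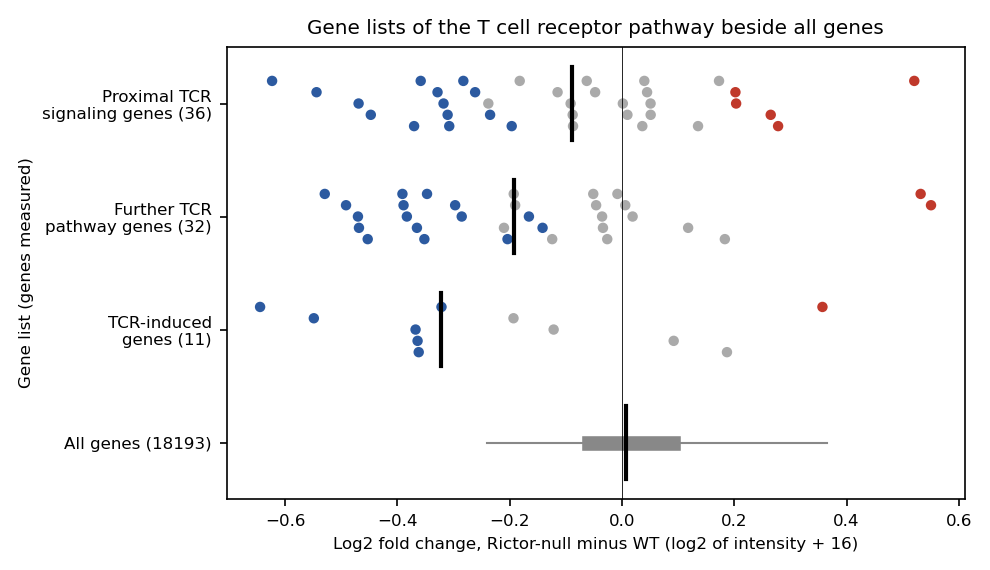
Log2 fold change, Rictor-null minus WT (x axis, log2 of intensity + 16), of the genes of 3 lists, with the number measured in brackets, and of all 18193 genes. Red points were higher, blue lower and grey did not pass, vertical bars are medians, and for all genes the thick line spans the 25th to 75th and the thin line the 5th to 95th percentile. The medians of the 3 lists are -0.09, -0.19 and -0.32, and that of all genes is 0.0068.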

How the data were processed

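RNA of sorted TFH cells was labelled and hybridised to single-colour Affymetrix mouse arrays. The deposited intensity values are on a linear scale, and of MAS5 and RMA, both named by the authors for their processing, neither is given a role. The annotation gave 1 symbol to 34945 probe sets, several to 932 and none to 9160, and only the first kind named a gene. The values were used as deposited, as log2(intensity + 16), which understates the change of dim genes. Rictor-null and WT arrays entered a fit by limma 3.58.1 under R 4.3.3 (lmFit, then eBayes with a variance trend) over 18193 genes with Benjamini-Hochberg adjustment. Precision is limited by the number of arrays, with 2 pools a group. The limma p-values set each difference against a spread that is in part pooled over genes, not against that of the gene's own pools alone. The genes, lists and tests were chosen with earlier results of these data known. Intensities on each array are given for the receptor genes, *Zap70*, *Lat* and the 10 genes with the largest change that passed, beside some others named by role, and of the other lists for up to 4 genes with the smallest p. The steps were tested on simulated data. Alternatives were median centring, quantile normalization, a filter on dim probe sets, averaged probe sets, no variance trend, a replicate block, a pseudocount of 1, the methods' one-tailed t-test, adjustment over all probe sets and leaving out each array. Promoters are from RefSeq (GRCm38.p6), whose promoter table held an entry for 29 of the 37 genes.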

Additional observations from a re-analysis of the deposited data

How the results depend on the processing

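With 2 arrays a group, the counts of TCR signaling genes and of all genes fell most without a WT array and under the adjusted methods' t-test. With an array left out, the TCR signaling genes ran from 9 to 15 lower and from 0 to 4 higher, all genes from 457 to 1048 lower and from 930 to 2000 higher, and the TCR-induced genes from 0 to 1 higher. The methods' t-test was one-tailed on the side of each observed difference. Unadjusted, it gave 15 lower and 6 higher TCR signaling genes and 2231 lower and 3143 higher of all genes. After Benjamini-Hochberg the counts were 0, 0, 3 and 3. *Cd4*, *Grb2* and *Nck1* did not reach the threshold of 0.05 in this test unadjusted either. For the further pathway genes and the TCR-induced genes it gave 17 and 7 lower and 3 and 1 higher unadjusted, and 0 in every case after adjustment. With all probe sets of a gene averaged, 842 of all genes were lower and 0 TCR-induced genes higher, and without dim probe sets the count of higher TCR-induced genes was also 0. The alternatives for the 2 further lists were added after the data were seen. Among the 19 genes called, over 14 alternatives each, the call held in 211 cases and was lost in 55, and no direction turned. Genes that were not called turned in sign in 11 cases and gained a call in 12. *Cd3d* was at -0.0010 under median centring, -0.034 under quantile normalization and -0.0025 to 0.022 with an array left out. *Skap1* was at -0.0092 and -0.027 under these scalings and -0.035 to 0.038 with an array left out. Leaving out arrays gave -0.096 to 0.17 for *Vav3* and -0.029 to 0.30 for *Grap2*, and averaged probe sets -0.054 for *Sla*. With the replicate number as a block, 14 TCR signaling genes were lower and 4 higher, beside 1382 lower and 2366 higher of all genes. *Sla2* lost its call there. Nothing in the labels pairs the arrays, and the deviations of same-numbered arrays correlated at -0.0954. For the differences named here the cause was not tested.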
